A study of Homo sapiens with 10 samples.

Results

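The cells of the body make cholesterol and most fatty acids from acetyl-CoA, and the genes for both routes were followed here in HEK-293, a line derived from human embryonic kidney, after transfection of small interfering RNAs (siRNAs). The set held 34 listed genes, taken by their symbol in the array platform's annotation, and each gene was read from the probe set with the highest mean over all 10 arrays. Of the 34 genes, 32 had a value, out of 18404 genes measured in all. FDFT1, which encodes squalene synthase, had no probe set under its symbol. HSD17B7, a sterol ketone reductase, was represented only by a probe set that it shares with the pseudogene HSD17B7P2, so it was given no value.

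RNA was measured on Affymetrix expression arrays. The study silenced LOC440173 and PAXIP1-AS1, each a long non-coding RNA. The arrays formed 5 groups of 2, which the labels call biological replicates. A p-value of the main fit weighs a difference between groups against the spread between such arrays. That spread was estimated from all 5 groups together and drawn towards the spread of other genes. The groups were LOC440173 siRNA 1 at 10 nM, LOC440173 siRNA 2 at 10 nM, a control siRNA at 10 nM, a PAXIP1-AS1 siRNA at 100 nM, and the same control siRNA at 100 nM. All cells were transfected with RNAiMax and lysed 48 hours later. They all grew in low-glucose medium with 10% fetal bovine serum, which carries lipoproteins. The sequence of the control siRNA is not public, PAXIP1-AS1 was silenced with 1 siRNA, and no array of untransfected cells was used here. Because each target has its own dose, target and dose cannot be told apart.

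In the mevalonate pathway, acetyl-CoA units are joined into isoprenoids, which are condensed to squalene, closed into a ring and trimmed to cholesterol. In fatty acid synthesis, the same acetyl-CoA is carboxylated, built into palmitate, elongated and desaturated. Both routes are transcribed under the SREBP factors, which the escort protein SCAP carries out of the endoplasmic reticulum when sterols are low, while the INSIG proteins hold SCAP back when sterols are high.

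Levels are the deposited log2 values, so a difference of 1 is a doubling. A level is compared only with the same gene on other arrays, because probe sets differ in brightness. The median gene had a mean level of 7.66, and of the 32 genes only PMVK lay below it. The array medians lay between 7.06 and 7.12. LOC440173, listed as LINC02893, was at 51.4% of the 10 nM control under siRNA 1 and at 27.0% under siRNA 2, while PAXIP1-AS1 had no probe set under its name, so its silencing could not be checked. Of 10 measured HEK-293 markers, 7 lay above the median gene on all arrays, among them SALL1, EYA1 and NEFL, while PAX2, LHX1 and KRT8 did not. Of 10 markers of other cells, COL1A1 alone did. The arrays measure RNA of whole cultures, so fewer cells of a type and less RNA per cell cannot be told apart.

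The region around the transcription start was available for 30 of the 34 genes in RefSeq (GRCh38.p14), as a window from 250 bases before to 50 bases after the start. The windows of ACAT2, FDFT1, SQLE and FASN are not shown. The 30 genes had 43 windows, which were searched on both strands for 4 motifs that the SREBP factors and their partners are known to bind, and a gene counts where any of its windows holds the motif. The sterol regulatory element TCACNCCAC was found in 3.33% of the 30 genes, which is SREBF2 alone, and in 1.39% of all 27305 genes of the table. The E-box CACGTG was found in LSS, SC5D, SCAP and INSIG1, which is 13.3% of the genes against 8.77% of all genes. The NF-Y box CCAAT was found in 73.3% of the genes against 39.7% of all genes, and the Sp1 box GGGCGG in 96.7% against 48.3%. A gene with more windows has more places to match. Counted by window, the NF-Y box was in 60.5% against 34.6% of all windows, and the Sp1 box in 88.4% against 45%. The sterol regulatory element was in 2.33% against 1.13%, and the E-box in 11.6% against 7.26%. The genes of the table were not matched for expression level. A match describes the letters of the window and is not a measured binding site. A missing match does not show that a site is missing, because only these strings were searched, and only in these windows. In the printed windows the different motifs did not overlap one another, although 2 Sp1 boxes of SREBF2 share a base.

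Windows of 4 genes follow, 5′ to 3′ on the gene's own strand, with motif matches on either strand in capitals. They were chosen because MSMO1 was higher with each LOC440173 siRNA, ELOVL6 differed most between these siRNAs, FADS1 had the largest fall, and SREBF2 holds the sterol regulatory element. Their places are chr4:165327419-165327718 on the plus strand for MSMO1, chr4:110198566-110198865 on the minus strand for ELOVL6, chr11:61816954-61817253 on the minus strand for FADS1 and chr22:41832855-41833154 on the plus strand for SREBF2.
MSMO1: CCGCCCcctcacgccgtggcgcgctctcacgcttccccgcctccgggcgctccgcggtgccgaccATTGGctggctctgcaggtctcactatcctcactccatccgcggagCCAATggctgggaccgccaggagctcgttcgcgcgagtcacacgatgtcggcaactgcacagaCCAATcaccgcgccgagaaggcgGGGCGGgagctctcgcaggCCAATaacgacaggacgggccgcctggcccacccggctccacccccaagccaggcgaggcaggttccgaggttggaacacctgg
ELOVL6: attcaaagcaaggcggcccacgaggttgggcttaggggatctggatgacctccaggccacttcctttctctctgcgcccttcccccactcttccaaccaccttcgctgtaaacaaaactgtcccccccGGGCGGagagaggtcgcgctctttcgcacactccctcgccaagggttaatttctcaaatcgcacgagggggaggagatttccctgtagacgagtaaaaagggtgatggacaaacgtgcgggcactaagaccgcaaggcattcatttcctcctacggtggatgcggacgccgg
FADS1: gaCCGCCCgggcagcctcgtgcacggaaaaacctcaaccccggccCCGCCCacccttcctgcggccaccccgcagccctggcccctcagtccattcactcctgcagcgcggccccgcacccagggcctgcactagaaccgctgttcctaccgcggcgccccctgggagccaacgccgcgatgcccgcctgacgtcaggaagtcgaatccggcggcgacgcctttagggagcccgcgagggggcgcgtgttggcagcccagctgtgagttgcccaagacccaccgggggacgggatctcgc
SREBF2: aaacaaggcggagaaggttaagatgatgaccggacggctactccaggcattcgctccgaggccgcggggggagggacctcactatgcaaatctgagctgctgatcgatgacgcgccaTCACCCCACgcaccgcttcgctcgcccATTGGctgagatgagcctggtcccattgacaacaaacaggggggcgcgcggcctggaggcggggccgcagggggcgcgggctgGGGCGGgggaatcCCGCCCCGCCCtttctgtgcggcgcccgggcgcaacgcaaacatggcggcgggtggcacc
MSMO1 has 4 NF-Y boxes in this window. ELOVL6 has 1 Sp1 box and FADS1 has 2 Sp1 boxes, and neither window holds an NF-Y box. In SREBF2 the sterol regulatory element lies at bases -133 to -125, counted from the start base as 0, and an NF-Y box follows at -106 to -102.

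With LOC440173 siRNA 1, more of these genes were lower than higher. A gene is named called where limma's adjusted p, over all 18404 genes, was under 0.05. With siRNA 1 against the control at 10 nM, 3 of the 32 genes were called higher and 11 lower, which is 43.8% of the genes, against 28.8% of all genes called and 43.8% of genes at or above the median level. By direction, 34.4% of the 32 were called lower, against 16.7% of all genes and 26.6% of genes at or above the median level, and 9.38% were called higher, against 12.1% and 17.2%. With siRNA 2, 10 genes were called higher and 8 lower, which is 56.2% of the genes, against 30.0% of all genes called and 47.1% of genes at or above the median level. Here 31.2% of the 32 were called higher, against 12.5% of all genes and 20.2% of genes at or above the median level, and 25.0% were called lower, against 17.4% and 26.9%. Both comparisons use the same 2 control arrays, so their values are given side by side and the siRNAs are compared directly.

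The direct test found that the siRNAs against LOC440173 left these genes at different levels. With siRNA 2 against siRNA 1, 15 of the 32 genes were called higher and 10 lower, which is 78.1%, against 37.1% of all genes called and 58.2% of genes at or above the median level. By direction, 46.9% of the 32 genes were called higher, against 18.2% of all genes and 29.9% of genes at or above the median level, and 31.2% were called lower, against 19.0% and 28.3%. The median log2 fold change of the 32 genes in this contrast was 0.15, and that of all genes was -0.05. With 1 array left out, the count of called genes changed in each of these contrasts, and so did the count over all genes. The lowest count for siRNA 1 came without its replicate 1, where fewer of all genes were called too. Where the fit held just the groups compared, siRNA 2 had 10 called genes against the control. Over all genes that fit called 2788 of 18404, against 5512 in the main fit.

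**Figure D1:**
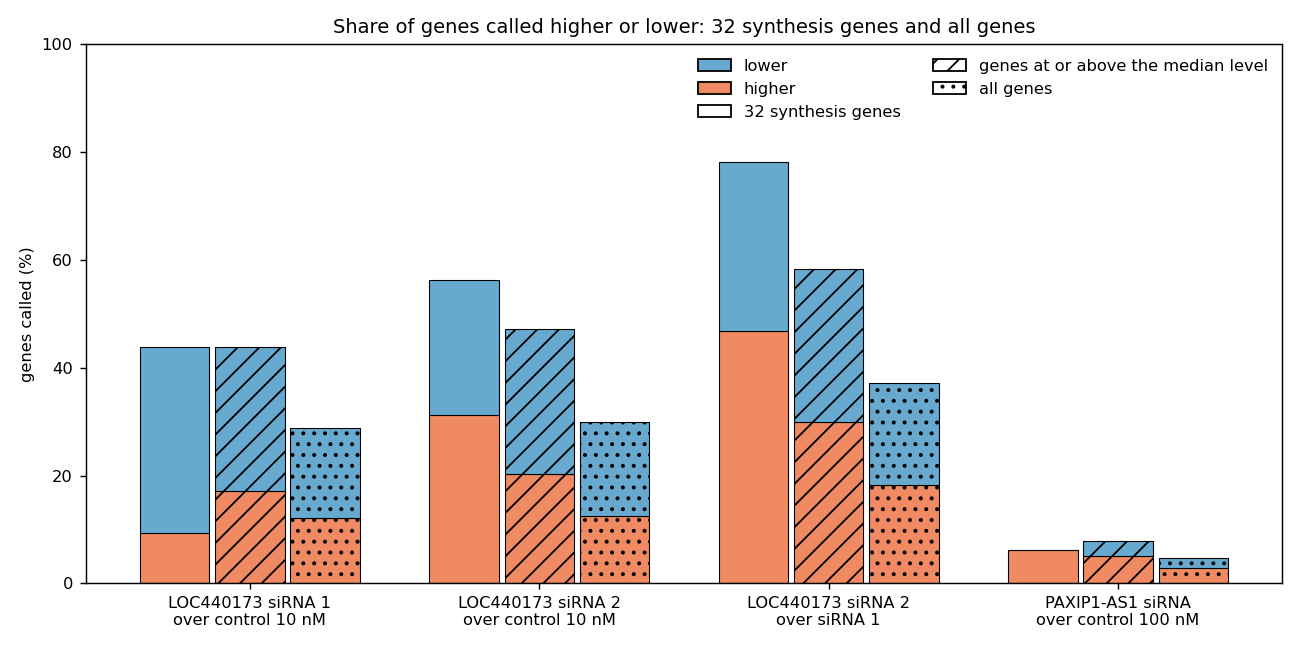
Share of genes called higher or lower in each of 4 contrasts, in percent of the genes tested, for the 32 synthesis genes, for genes at or above the median level and for all genes. In the direct contrast of siRNA 2 with siRNA 1, 78.1% of the synthesis genes were called, against 37.1% of all genes.

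Of the enzymes that lead from acetyl-CoA to farnesyl diphosphate, ACAT2 was higher with both LOC440173 siRNAs, and with siRNA 2 so were HMGCS1 and MVD, while IDI1 was lower. Of 7 measured genes, 1 was called higher with siRNA 1, while with siRNA 2 there were 3 called higher and 1 lower. Of all genes, 12.1% were called higher and 16.7% lower with siRNA 1, and 12.5% and 17.4% with siRNA 2. At or above the median level these shares were 17.2% and 26.6%, and 20.2% and 26.9%. ACAT2, the cytosolic thiolase that joins acetyl-CoA units in the opening step, read 9.88 and 9.85 with siRNA 1 and 10.08 and 10.11 with siRNA 2, against 8.96 and 9.19 with the control at 10 nM. All 4 arrays of silenced cells lay above both controls. The log2 fold change was 0.78 ± 0.075 with siRNA 1 (SE, adjusted p = 0.000211 by limma) and 1.02 ± 0.075 with siRNA 2 (adjusted p = 5.43e-05). TCP1, a chaperonin gene whose annotated span overlaps that of ACAT2, gave -0.10 with siRNA 1 (adjusted p = 0.133) and 0.11 with siRNA 2 (adjusted p = 0.116) and was not called.

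HMGCS1, the synthase that follows the thiolase, read 9.62 and 9.63 with siRNA 2 and 9.13 and 9.17 with siRNA 1, against 9.22 and 9.30 with the control. Both siRNA 2 arrays lay above all others of these groups, and siRNA 2 exceeded siRNA 1 by 0.47 ± 0.051 (adjusted p = 0.000190). MVD, the decarboxylase that makes isopentenyl diphosphate, read 8.61 and 8.56 with siRNA 2 and 8.27 and 8.23 with siRNA 1, against 8.30 and 8.01 with the control. Only siRNA 2 stood clear of the control, which siRNA 1 overlapped, with a log2 fold change of 0.44 ± 0.097 (adjusted p = 0.0105). IDI1, the isomerase of that product, went the other way. It read 10.12 and 10.23 with siRNA 2 and 10.55 and 10.49 with siRNA 1, against 10.43 and 10.52 with the control. Both siRNA 2 arrays were the lowest, at -0.30 ± 0.063 against the control (adjusted p = 0.00830). The kinases MVK and PMVK were not called in any of these contrasts, with log2 fold changes between -0.04 and 0.04 against the control. FDPS, the farnesyl diphosphate synthase, reached 0.19 with siRNA 1 (adjusted p = 0.0594) and 0.04 with siRNA 2 (adjusted p = 0.704).

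From squalene to cholesterol, siRNA 1 went with lower SQLE, LSS, CYP51A1 and EBP and higher MSMO1, and siRNA 2 with higher CYP51A1, MSMO1 and SC5D and lower LSS and DHCR7. With siRNA 1, 1 of 9 measured genes was called higher and 4 lower, and with siRNA 2 there were 3 called higher and 2 lower. The shares of all genes were 12.1% higher and 16.7% lower with siRNA 1, and 12.5% and 17.4% with siRNA 2. Those of genes at or above the median level were 17.2% and 26.6%, and 20.2% and 26.9%. SQLE, the squalene epoxidase and a rate-controlling step, read 10.13 and 10.08 with siRNA 1 and 11.02 and 11.01 with siRNA 2, against 11.15 and 11.22 with the control. The siRNA 1 arrays stood more than 0.8 below every other array, and the log2 fold change of -1.08 ± 0.056 leaves 47.3% of the control (adjusted p = 1.61e-05). With siRNA 2 the change was -0.17 ± 0.056 (adjusted p = 0.0545), which missed the threshold.

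LSS, the cyclase that forms lanosterol, read 8.34 and 8.36 with siRNA 1 and 9.01 and 9.04 with siRNA 2, against 9.24 and 9.25 with the control. The groups did not overlap, and both siRNAs lay below the control, at -0.90 ± 0.047 (adjusted p = 1.74e-05) and -0.22 ± 0.047 (adjusted p = 0.00915). CYP51A1, the lanosterol demethylase, read 10.46 and 10.45 with siRNA 1 and 11.14 and 11.17 with siRNA 2, against 10.63 and 10.69 with the control. The siRNAs lay on opposite sides of the control, at -0.21 with siRNA 1 (adjusted p = 0.0150) and 0.50 with siRNA 2 (adjusted p = 0.000202). A dimmer probe set of CYP51A1 gave 0.09 with siRNA 1 and 0.01 with siRNA 2, and with the mean of both probe sets the siRNA 1 call was lost (adjusted p = 0.465).

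MSMO1, the methylsterol oxidase that acts after CYP51A1, read 11.20 and 11.19 with siRNA 1 and 11.50 and 11.53 with siRNA 2, against 10.73 and 10.93 with the control. Both siRNAs lay above both controls, and siRNA 2 above siRNA 1, with log2 fold changes of 0.37 ± 0.077 (adjusted p = 0.00883) and 0.69 ± 0.077 (adjusted p = 0.000371). SC5D, a sterol desaturase near the end of the route, read 11.31 and 11.39 with siRNA 2 and 10.92 and 10.88 with siRNA 1, against 10.75 and 11.07 with the control. The control arrays were wide apart and enclosed siRNA 1, while siRNA 2 lay above them by 0.44 ± 0.095 (adjusted p = 0.00970). EBP, the sterol isomerase, read 9.85 and 9.85 with siRNA 1 and 10.05 and 9.94 with siRNA 2, against 10.14 and 10.20 with the control. It was lowest with siRNA 1, at -0.32 ± 0.061 (adjusted p = 0.00572), and siRNA 2 gave -0.17 (adjusted p = 0.0654).

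DHCR7, a reductase of the last steps, read 10.66 and 10.70 with siRNA 2 and 10.83 and 10.83 with siRNA 1, against 10.96 and 10.93 with the control. The groups did not overlap, and siRNA 2 was lowest, at -0.27 ± 0.050 (adjusted p = 0.00480), while siRNA 1 gave -0.11 (adjusted p = 0.127). TM7SF2, a sterol reductase, reached -0.12 with siRNA 1 and -0.20 with siRNA 2. NSDHL, a dehydrogenase that helps remove methyl groups, reached 0.03 and -0.12, and none of these was called against the control. In the direct contrast NSDHL and DHCR7 were called lower with siRNA 2, at -0.15 ± 0.046 and -0.15 ± 0.050 (adjusted p = 0.0332 and 0.0446). Against each other, siRNA 2 exceeded siRNA 1 most at SQLE, by 0.91 ± 0.056, at CYP51A1, by 0.70 ± 0.049, and at LSS, by 0.68 ± 0.047 (adjusted p = 1.24e-05, 2.05e-05 and 2.12e-05).

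Among the genes that sense sterols, INSIG1 was called with siRNA 1 and had the largest difference between the siRNAs, while with siRNA 2 against the control SREBF1 was the one called. INSIG1 encodes the anchor that retains SCAP, and is itself a known SREBP target. INSIG1 read 11.15 and 11.08 with siRNA 1 and 10.56 and 10.58 with siRNA 2, against 10.70 and 10.72 with the control. The siRNA 1 arrays were the highest and the siRNA 2 arrays the lowest, with no overlap. The log2 fold change was 0.40 ± 0.048 with siRNA 1 (adjusted p = 0.000659) and -0.14 ± 0.048 with siRNA 2 (adjusted p = 0.0602), and siRNA 2 minus siRNA 1 was -0.54 ± 0.048 (adjusted p = 6.97e-05). With siRNA 1, the 3 genes called higher were INSIG1, ACAT2 and MSMO1, and 11 genes, among them SQLE, LSS and FADS1, were called lower.

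SREBF1, which encodes the SREBP that is best known for fatty acid genes, read 7.89 and 7.76 with siRNA 2 and 8.18 and 8.25 with siRNA 1, against 8.23 and 8.07 with the control. Both siRNA 2 arrays were the lowest, at -0.32 ± 0.071 against the control (adjusted p = 0.0107), while siRNA 1 overlapped it. SCAP read 9.80 and 9.71 with siRNA 2 and 9.96 and 10.02 with siRNA 1, against 9.93 and 9.85 with the control. The siRNA 2 arrays were the lowest and the siRNA 1 arrays the highest, and the call came in the direct contrast alone, at -0.23 ± 0.058 (adjusted p = 0.0142). SREBF2, the SREBP best known for sterol genes, gave -0.17 with siRNA 1 (adjusted p = 0.0707) and -0.02 with siRNA 2, and INSIG2, the second anchor, 0.08 and 0.00. Of 5 sensing genes, 1 was called higher with siRNA 1 and 1 lower with siRNA 2. For all genes the shares were 12.1% higher with siRNA 1 and 17.4% lower with siRNA 2, and 17.2% and 26.9% at or above the median level.

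Of the remaining sterol genes, STARD4, a carrier of cholesterol between membranes, read 7.43 and 7.35 with siRNA 1 and 7.80 and 8.10 with siRNA 2, against 7.88 and 8.06 with the control. The siRNA 1 arrays lay below the rest, at -0.58 ± 0.10 (adjusted p = 0.00433), while the siRNA 2 arrays overlapped the control. MYLIP, a ubiquitin ligase that degrades lipoprotein receptors, read 8.36 and 8.36 with siRNA 2 and 8.52 and 8.57 with siRNA 1, against 8.46 and 8.42 with the control. The siRNA 2 arrays were the lowest and the siRNA 1 arrays the highest, with no overlap, and MYLIP was called in the direct contrast alone, at -0.18 ± 0.047 (adjusted p = 0.0171).

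**Figure D2:**
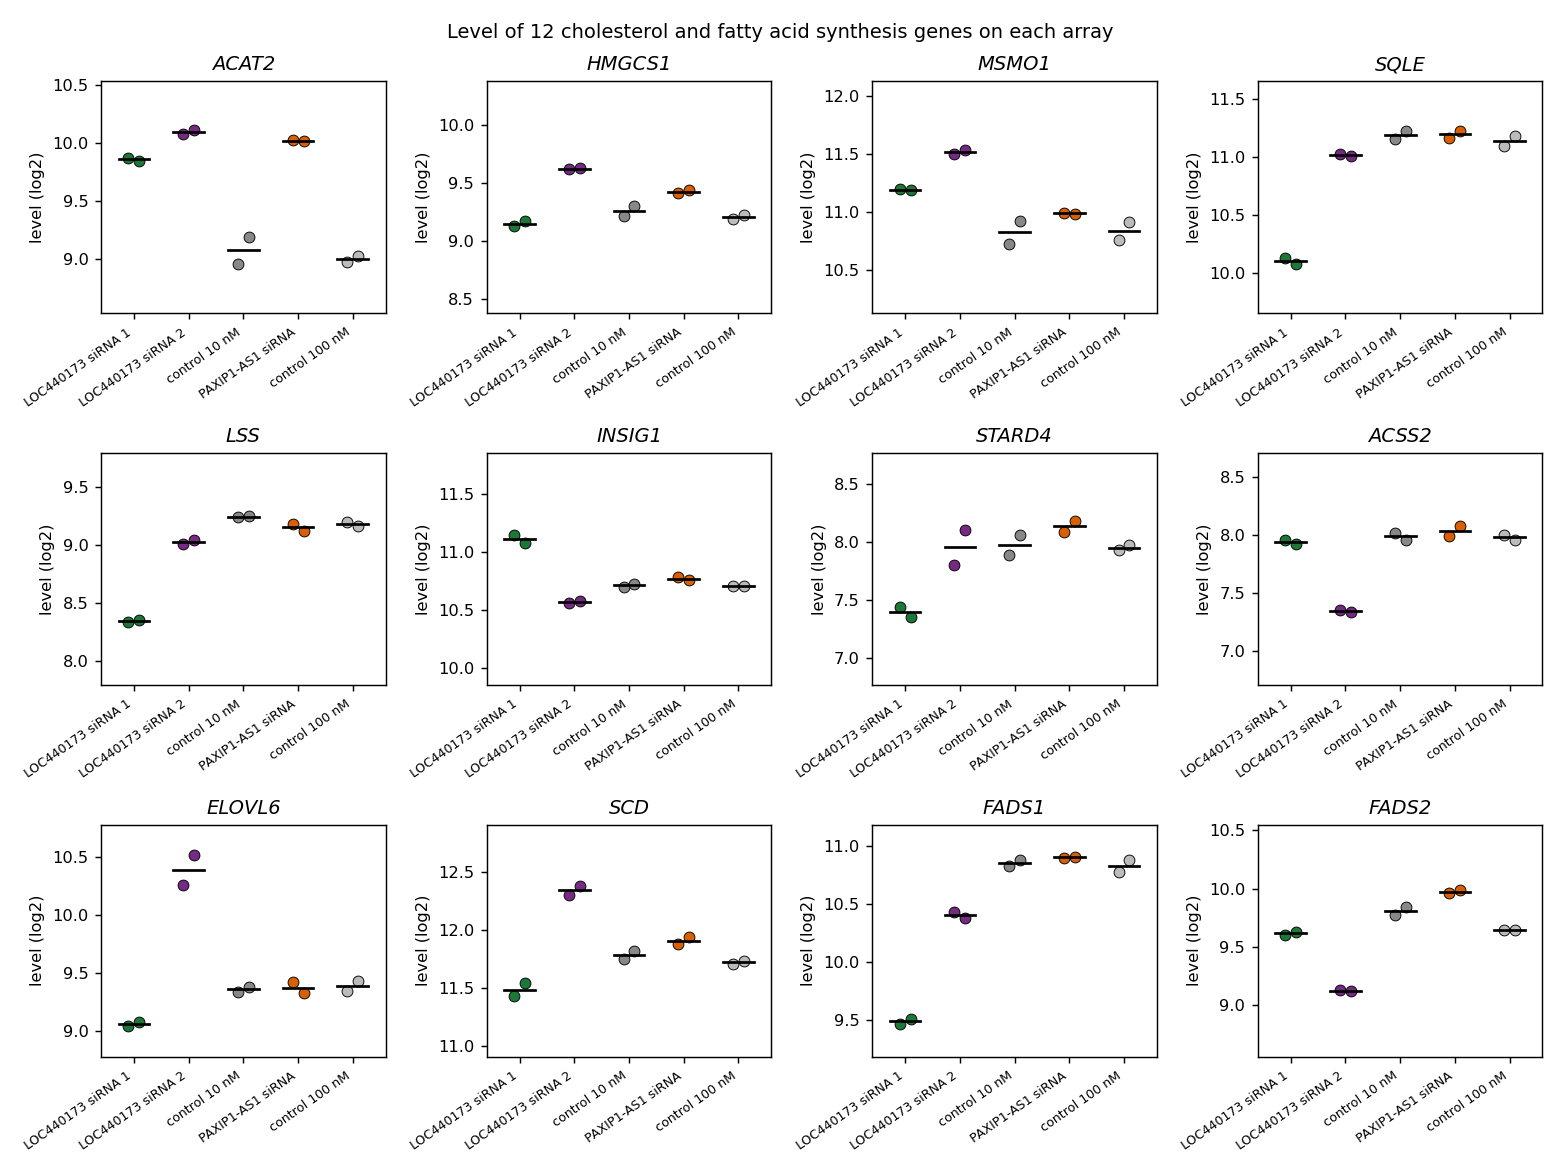
Level of 12 of the genes on each array, on the log2 scale, with a point per array and a bar at the mean of the 2 arrays. Every panel spans the same range of 2 log2 units, and the genes shown were chosen after their values were seen. SQLE, LSS and FADS1 are lowest with siRNA 1, ELOVL6 and SCD are highest with siRNA 2, and ACAT2 is higher on all 6 arrays of silenced cells than on the 4 control arrays.

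FADS1 and ELOVL6, of fatty acid synthesis, had the largest fold changes of the 32 genes in the LOC440173 contrasts. With siRNA 1, 6 of 9 genes were called lower and none higher, where 0 was also the count higher at an unadjusted p under 0.05, and the median was -0.30, against 0.05 for all genes. Of all genes, 16.7% were called lower and 12.1% higher with siRNA 1. Among genes at or above the median level, 26.6% were called lower and 17.2% higher. With siRNA 2, 4 were called higher and 4 lower, with a median of 0.13. Of all genes, 12.5% were called higher and 17.4% lower with siRNA 2, and at or above the median level 20.2% and 26.9%. In the direct contrast all 9 were called, 6 higher with siRNA 2 and 3 lower. There 37.1% of all genes and 58.2% of genes at or above the median level were called.

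FADS1, a desaturase that makes polyunsaturated fatty acids, had the largest fall. It read 9.46 and 9.51 with siRNA 1 and 10.42 and 10.37 with siRNA 2, against 10.83 and 10.88 with the control. The groups did not overlap, and siRNA 1 was lowest. The log2 fold change was -1.37 ± 0.056 with siRNA 1, which leaves 38.8% of the control (adjusted p = 7.16e-06), and -0.45 ± 0.056 with siRNA 2 (adjusted p = 0.000599). Its neighbour FADS2, whose annotated span overlaps that of FADS1 and whose enzyme acts earlier in the same route, read 9.12 and 9.11 with siRNA 2 and 9.60 and 9.63 with siRNA 1, against 9.77 and 9.84 with the control. Here siRNA 2 was lowest, at -0.69 ± 0.048 (adjusted p = 4.18e-05), against -0.19 ± 0.048 with siRNA 1 (adjusted p = 0.0199). In the direct contrast the neighbours had opposite signs, FADS1 at 0.91 ± 0.056 (adjusted p = 1.21e-05) and FADS2 at -0.50 ± 0.048 (adjusted p = 0.000109).

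ELOVL6, the elongase of palmitate, read 10.26 and 10.52 with siRNA 2 and 9.05 and 9.08 with siRNA 1, against 9.34 and 9.39 with the control. The siRNAs lay on opposite sides of the control, at 1.03 ± 0.086 with siRNA 2 (adjusted p = 9.86e-05) and -0.30 ± 0.086 with siRNA 1 (adjusted p = 0.0344). The difference of 1.33 ± 0.086 between them was the largest of the 32 genes (adjusted p = 1.59e-05). SCD, the desaturase that makes oleate, had the same order. It read 12.30 and 12.38 with siRNA 2 and 11.43 and 11.54 with siRNA 1, against 11.75 and 11.82 with the control, and the log2 fold changes were 0.56 ± 0.061 with siRNA 2 (adjusted p = 0.000328) and -0.30 ± 0.061 with siRNA 1 (adjusted p = 0.00799).

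LPIN1, a phosphatidate phosphatase and coregulator of lipid genes, read 8.82 and 8.77 with siRNA 2 and 8.02 and 8.14 with siRNA 1, against 8.52 and 8.52 with the control. It too was above the control with siRNA 2, by 0.28 ± 0.059 (adjusted p = 0.00815), and below it with siRNA 1, at -0.44 ± 0.059 (adjusted p = 0.00112). ACACA, the carboxylase that commits acetyl-CoA to fatty acids, read 9.60 and 9.62 with siRNA 1 and 10.07 and 10.04 with siRNA 2, against 9.91 and 9.94 with the control. It was lower with siRNA 1, at -0.31 ± 0.054 (adjusted p = 0.00358), and siRNA 2 gave 0.13 (adjusted p = 0.118). FASN, the fatty acid synthase, was called with siRNA 2, at 0.32 ± 0.058 (adjusted p = 0.00415), and not with siRNA 1, at 0.06.

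The enzymes that supply cytosolic acetyl-CoA were lower with siRNA 2. ACSS2, which makes it from acetate, read 7.35 and 7.34 with siRNA 2 and 7.96 and 7.92 with siRNA 1, against 8.02 and 7.96 with the control. The siRNA 2 arrays lay far below the rest, at -0.65 ± 0.053, which leaves 63.9% of the control (adjusted p = 8.98e-05), and siRNA 1 gave -0.05. ACLY, which makes it from citrate, read 11.36 and 11.38 with siRNA 2 and 11.61 and 11.64 with siRNA 1, against 11.77 and 11.74 with the control. All 3 groups were apart, with siRNA 2 lowest at -0.39 ± 0.046 (adjusted p = 0.000517) and siRNA 1 at -0.13 (adjusted p = 0.0755).

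**Figure D3:**
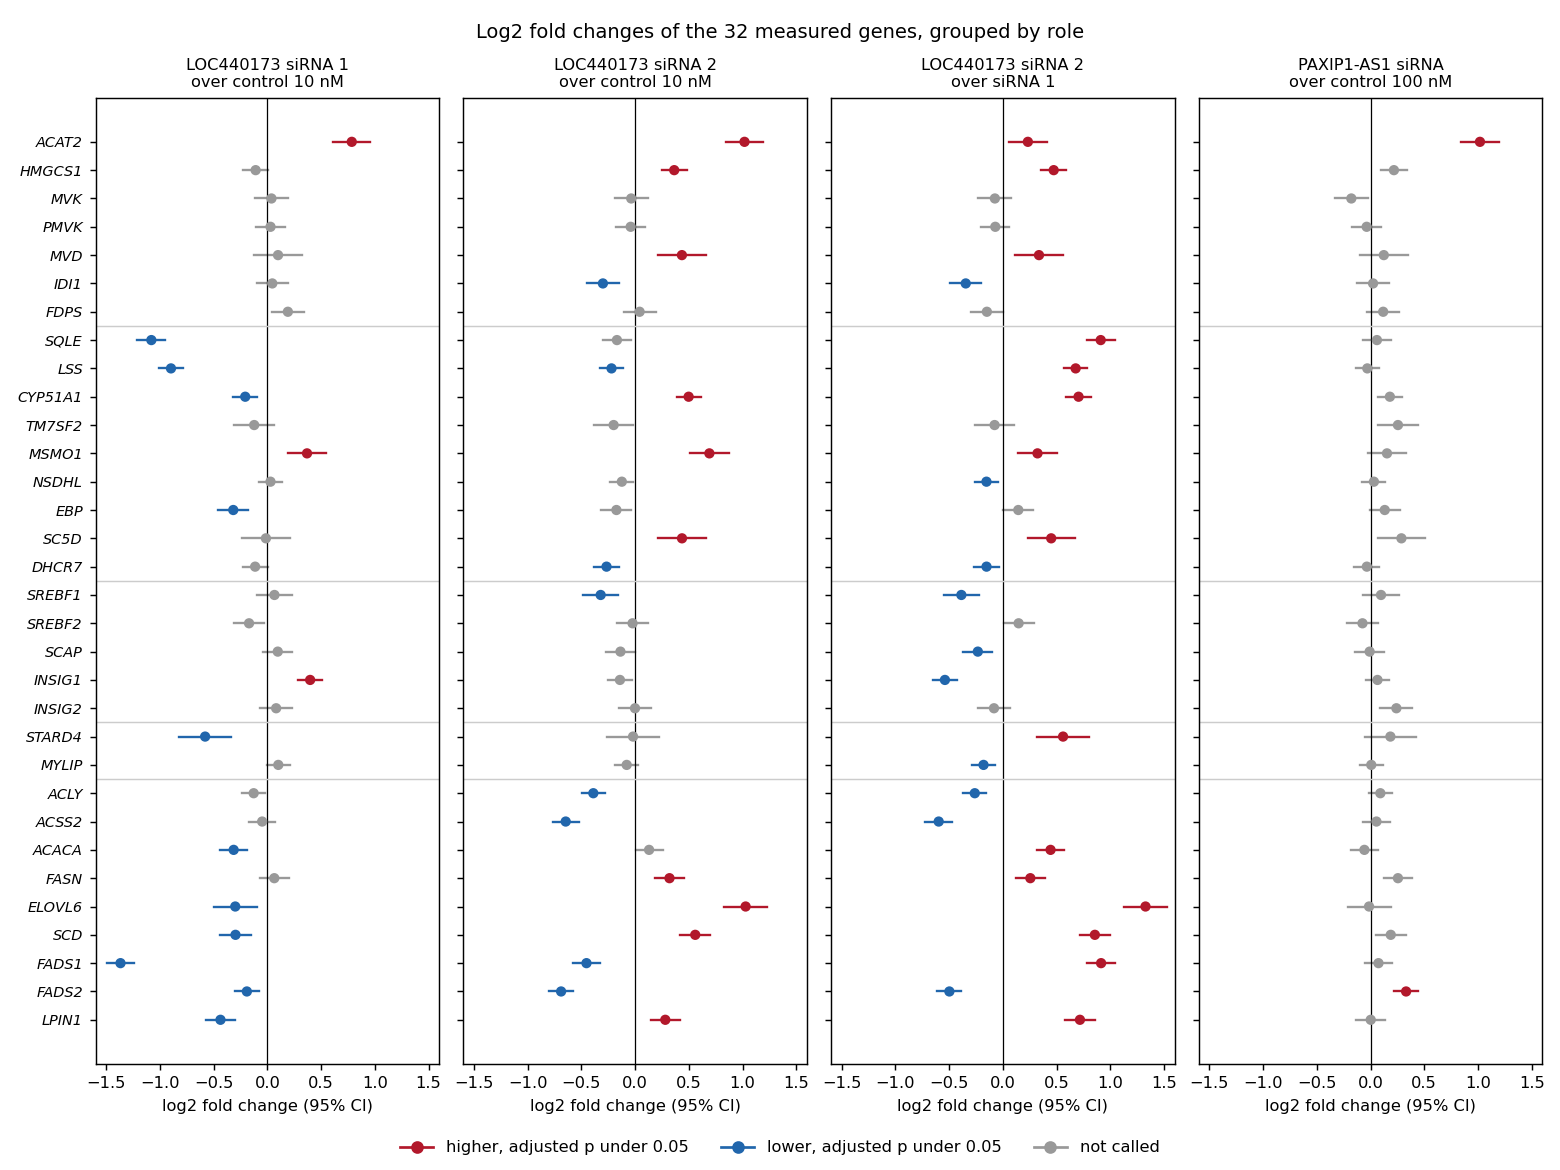
Log2 fold changes of the 32 measured genes, grouped by role, in 4 contrasts, with bars for the 95% confidence interval and colour for called genes. ELOVL6 and SCD lie right of 0 with siRNA 2 and left of 0 with siRNA 1, ACAT2 lies right of 0 with every silencing siRNA, and FADS1 reaches -1.37 with siRNA 1.

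Some of these calls rested on single arrays or on the shared spread. With siRNA 1, the calls of MSMO1 (adjusted p = 0.0539) and SCD (0.0638) were lost without replicate 1 of siRNA 1. ELOVL6 lost its siRNA 1 call without any 1 of the 6 arrays of siRNA 1, the control at 10 nM and PAXIP1-AS1 (adjusted p up to 0.146), and CYP51A1 and FADS2 without either siRNA 1 array or replicate 2 of the control at 10 nM (up to 0.0793 and 0.106). With siRNA 2, IDI1 and MVD lost theirs without replicate 1 of siRNA 2 (0.0515 and 0.0531), SC5D without replicate 2 of siRNA 2 (0.0562), and SREBF1 without that array or replicate 1 of the control (0.0674 and 0.0558). Where the fit held just the groups compared, siRNA 2 lost the calls of DHCR7, FASN, IDI1, LPIN1, LSS, MVD, SC5D and SREBF1 (adjusted p between 0.0566 and 0.103). Under that fit siRNA 1 lost those of SCD, CYP51A1 and FADS2 (between 0.0509 and 0.112). The direct contrast lost those of NSDHL, DHCR7 and MYLIP there (0.110, 0.107 and 0.0717). Between the siRNAs, ACAT2, DHCR7 and NSDHL lost theirs without any 1 of 8, 10 and 8 of the 10 arrays (up to 0.162, 0.158 and 0.158), MVD without any 1 of the 4 LOC440173 arrays (up to 0.119), MYLIP and MSMO1 without 3 of those 4 (up to 0.107 and 0.0607), SCAP without replicate 2 of either siRNA (up to 0.0928) and FASN without replicate 1 of siRNA 1 (0.0681).

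With the PAXIP1-AS1 siRNA, ACAT2 and FADS2 were the genes that passed the test. Against the control at 100 nM, 2 were called higher, which is 6.25% of them, against 4.62% of all genes called and 7.84% of genes at or above the median level. All genes called higher made up 2.86%, and 5.01% of genes at or above the median level. None of the 32 was called lower, against 1.76% of all genes and 2.83% at or above the median level. At an unadjusted p under 0.05 there were 9 higher and 1 lower, the last being MVK at -0.18. ACAT2 read 10.03 and 10.02 with the PAXIP1-AS1 siRNA, against 8.98 and 9.03 with the control at 100 nM. Both PAXIP1-AS1 arrays lay about 1 log2 unit above the controls, with a log2 fold change of 1.02 ± 0.075, a 95% interval of 0.84 to 1.19 and an adjusted p of 0.000677. TCP1, with which its annotated span overlaps, gave 0.12 (adjusted p = 0.217). FADS2 read 9.96 and 9.99 with the PAXIP1-AS1 siRNA, against 9.64 and 9.64 with the control at 100 nM, and the control at 10 nM lay between, at 9.77 and 9.84. With the PAXIP1-AS1 siRNA it was 0.33 ± 0.048 above the control at 100 nM (adjusted p = 0.0109), and the call was lost without any single array of these 2 groups (adjusted p up to 0.109).

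Several synthesis genes lay close to the threshold with the PAXIP1-AS1 siRNA. FASN gave 0.26 (adjusted p = 0.0509), HMGCS1 0.22 (adjusted p = 0.0565), INSIG2 0.24 (adjusted p = 0.0836) and CYP51A1 0.18 (adjusted p = 0.0847). HMGCS1 read 9.41 and 9.44 with the PAXIP1-AS1 siRNA, against 9.19 and 9.22 with the control. The genes with the largest falls under LOC440173 siRNA 1 were near 0 here. FADS1 gave 0.07 (95% interval -0.05 to 0.20), SQLE 0.06 (-0.07 to 0.19) and LSS -0.03 (-0.14 to 0.08). INSIG1 gave 0.06 (-0.05 to 0.18). The count of called genes rested on the settings, and the count over all genes moved with it. In the main fit 850 of 18404 genes were called. With dim genes left out, 9 of 31 synthesis genes and 1879 of 9202 genes were called. With an intensity trend and a robust prior it was 7 of 32, and 1784 of 18404. With just the compared groups it was 1 of 32, and 181 of 18404. The count rose without either array of the control at 10 nM. It fell without any single PAXIP1-AS1 array or control array at 100 nM. The count over all genes rose and fell in the same fits.

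The effect of silencing was then compared between the targets, as the PAXIP1-AS1 effect minus the mean effect of the LOC440173 siRNAs, each against its own control. Of the 32 genes, 8 were called higher in this difference, which is 25.0%, against 11.6% of all genes called and 18.1% of genes at or above the median level. All genes called higher made up 8.79%, and 14.4% of genes at or above the median level were called higher. None of the 32 was called lower, against 2.78% of all genes and 3.68% at or above the median level. At an unadjusted p under 0.05 there were 12 higher and 2 lower. After cyclic loess there were 8 higher and 2 lower. There were also 2 lower with dim genes left out, with the intensity trend and robust prior, and with a replicate block. In each of these fits they were MSMO1 and ELOVL6, both at -0.38 in the main fit and not called there. More of all genes were called in these fits, 2320, 3077 and 3015 of 18404 and 2979 of 9202, against 2129 of 18404 in the main fit. Where the LOC440173 siRNAs went opposite ways, their effects partly cancel in the mean. ELOVL6 gave -0.30 with siRNA 1 and 1.03 with siRNA 2, and SCD gave -0.30 and 0.56. Some means rested mainly on 1 siRNA, with SQLE at -1.08 under siRNA 1 and -0.17 under siRNA 2, and ACSS2 at -0.05 and -0.65. FADS1 differed by 0.98 ± 0.074 (adjusted p = 0.000478), FADS2 by 0.77 ± 0.064 (adjusted p = 0.000746), SQLE by 0.68 ± 0.074 (adjusted p = 0.00161) and LSS by 0.53 ± 0.063 (adjusted p = 0.00233). These 4 genes were lower on every LOC440173 array than on the controls at 10 nM. On the PAXIP1-AS1 side, FADS1 read 10.89 and 10.90 with the siRNA, against 10.77 and 10.88 with its control. SQLE read 11.16 and 11.22, against 11.09 and 11.18, and LSS read 9.18 and 9.13, against 9.20 and 9.17, for the PAXIP1-AS1 siRNA and its control. SQLE and LSS thus overlapped their controls there, and both FADS1 arrays lay just above the upper control.

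The other 4 were TM7SF2, ACSS2, EBP and ACLY, with differences between 0.35 and 0.42, and without single arrays each of them lost its call at least once. ACSS2 averaged 8.03 ± 0.061 with the PAXIP1-AS1 siRNA against 7.98 ± 0.029 with its control (SD, n = 2 each). For the same groups EBP read 10.30 and 10.19 against 10.09 and 10.13, and ACLY read 11.84 and 11.83 against 11.72 and 11.76. ACSS2 overlapped its control, and EBP and ACLY lay above theirs, none of them called in that contrast. TM7SF2 read 8.43 and 8.46 with the PAXIP1-AS1 siRNA against 8.18 and 8.20 with its control, and 8.06 and 8.08 with siRNA 1 and 8.09 and 7.89 with siRNA 2 against 8.27 and 8.11 with theirs. For ACAT2 the difference was 0.12 ± 0.100 (95% interval -0.11 to 0.35, adjusted p = 0.511), which leaves room for effects that are unequal by up to 0.35.

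The control groups set the background. With the control siRNA at 100 nM against 10 nM, limma called 0 of the 32 genes, and 0% of all genes. At an unadjusted p under 0.05 there was 1 of the 32, FADS2, which read 9.64 and 9.64 at 100 nM against 9.77 and 9.84 at 10 nM. Its log2 fold change of -0.17 (95% interval -0.28 to -0.05) was the largest in size, and the 32 genes ran from -0.17 to 0.06.

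Genes around these routes were counted in 6 lists that hold none of the 34. Their counts stand beside shares over all genes of 12.1% called higher and 16.7% lower with siRNA 1, 12.5% and 17.4% with siRNA 2, and 2.86% and 1.76% with the PAXIP1-AS1 siRNA. Among genes at or above the median level these shares were 17.2% and 26.6%, 20.2% and 26.9%, and 5.01% and 2.83%. With siRNA 1, 6 of 15 measured genes that process or degrade SREBP pathway proteins, or share their promoters, were called lower and 1 higher, with a median of -0.08, against 0.05 for all genes. They were led by FBXW7, a ligase subunit that marks nuclear SREBPs for degradation, at -0.59, UBE2G2, an enzyme of endoplasmic reticulum protein degradation, at -0.54, and NFYA, a subunit of NF-Y, at -0.46 (adjusted p between 0.000219 and 0.00234). With siRNA 2, 4 were called lower, led by the other NF-Y subunits NFYC at -0.40 and NFYB at -0.35 (adjusted p = 0.00115 and 0.0178). NFYB was dim, at 7.05 with the control at 10 nM against 7.66 for the median gene. With the PAXIP1-AS1 siRNA none was called, and 4 were higher and 2 lower at an unadjusted p under 0.05. On the isoprenoid branches, 3 of 13 were called higher and 3 lower with siRNA 1, and 4 and 4 with siRNA 2. RABGGTB, a subunit of the transferase that prenylates Rab proteins, averaged 10.28 with siRNA 2 and 11.26 with siRNA 1, against 10.86 with the control. It was therefore on opposite sides of the control, and the siRNAs differed by -0.98 (adjusted p = 1.27e-05).

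Among 17 measured genes of sterol uptake, esterification and efflux, 6 were called higher and 5 lower with siRNA 1, 6 higher and 3 lower with siRNA 2, and 4 higher with the PAXIP1-AS1 siRNA. STARD3NL, a protein of contacts between late endosomes and the endoplasmic reticulum, averaged 10.05 with siRNA 1 and 9.46 with siRNA 2, against 8.84 with the control at 10 nM. It averaged 10.01 with the PAXIP1-AS1 siRNA, against 8.74 with the control at 100 nM, a log2 fold change of 1.27 (adjusted p = 0.000337). SOAT1, which esterifies cholesterol for storage, was higher by 0.81 with siRNA 2 (adjusted p = 0.000299) and by 0.82 with the PAXIP1-AS1 siRNA (adjusted p = 0.00319). LRP8, a lipoprotein receptor, averaged 10.06 with siRNA 2 and 8.30 with siRNA 1, against 9.48 with the control. The siRNAs differed by 1.77 at LRP8 (adjusted p = 2.24e-06).

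In the list of other fatty acid synthesis, elongation and activation genes, 9 of 21 were called lower and 1 higher with siRNA 1, with a median of -0.15. The leading genes were ACSL1, which activates fatty acids with coenzyme A, at -1.11, ELOVL7, an elongase, at -1.10, and HSD17B12, a reductase of elongation, at -0.80 (adjusted p between 5.38e-05 and 0.000182). With siRNA 2, 7 were called higher and 6 lower. MECR, of mitochondrial fatty acid synthesis, was higher by 0.75 and SLC25A1, the mitochondrial citrate carrier, gave -0.68 (adjusted p = 3.19e-05 and 0.000102). With the PAXIP1-AS1 siRNA 5 were called higher, led by ME1, a malic enzyme that makes NADPH, at 0.55, and ACSL4 at 0.48 (adjusted p = 0.00489 and 0.00933). Of 20 measured oxidation genes, 3 were called higher and 7 lower with siRNA 1, and 6 and 6 with siRNA 2. ACADL, an acyl-CoA dehydrogenase whose probe set lay below the median gene, had the largest change among the called genes of the list with each siRNA, at -1.23 with siRNA 1 (adjusted p = 0.00046) and -0.80 with siRNA 2 (adjusted p = 0.00332). EHHADH, a peroxisomal enzyme, gave -0.71 under siRNA 1 (adjusted p = 0.00437) and -0.69 under siRNA 2 (adjusted p = 0.0045), and CPT1A, which admits fatty acids to mitochondria, gave -0.65 with siRNA 2 (adjusted p = 0.000206). PPARGC1A, a coactivator of oxidation genes, went the other way with siRNA 1, at 0.63 (adjusted p = 0.000919), and siRNA 2 minus siRNA 1 was -1.19 (adjusted p = 1.98e-05). With the control at 10 nM, EHHADH averaged 7.43 and PPARGC1A 7.63, also below the median gene at 7.66. Of 16 glycerolipid genes, 3 were called higher and 2 lower with siRNA 1, and 3 and 5 with siRNA 2. PTDSS2, a phosphatidylserine synthase, gave -0.43 with siRNA 1 (adjusted p = 0.000738). With siRNA 2, the acyltransferases AGPAT2 and AGPAT4 gave -0.51 and -0.49 (adjusted p = 0.00104 and 0.000528), and GPAM, a mitochondrial acyltransferase, gave 0.46 (adjusted p = 0.00105).

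**Figure D4:**
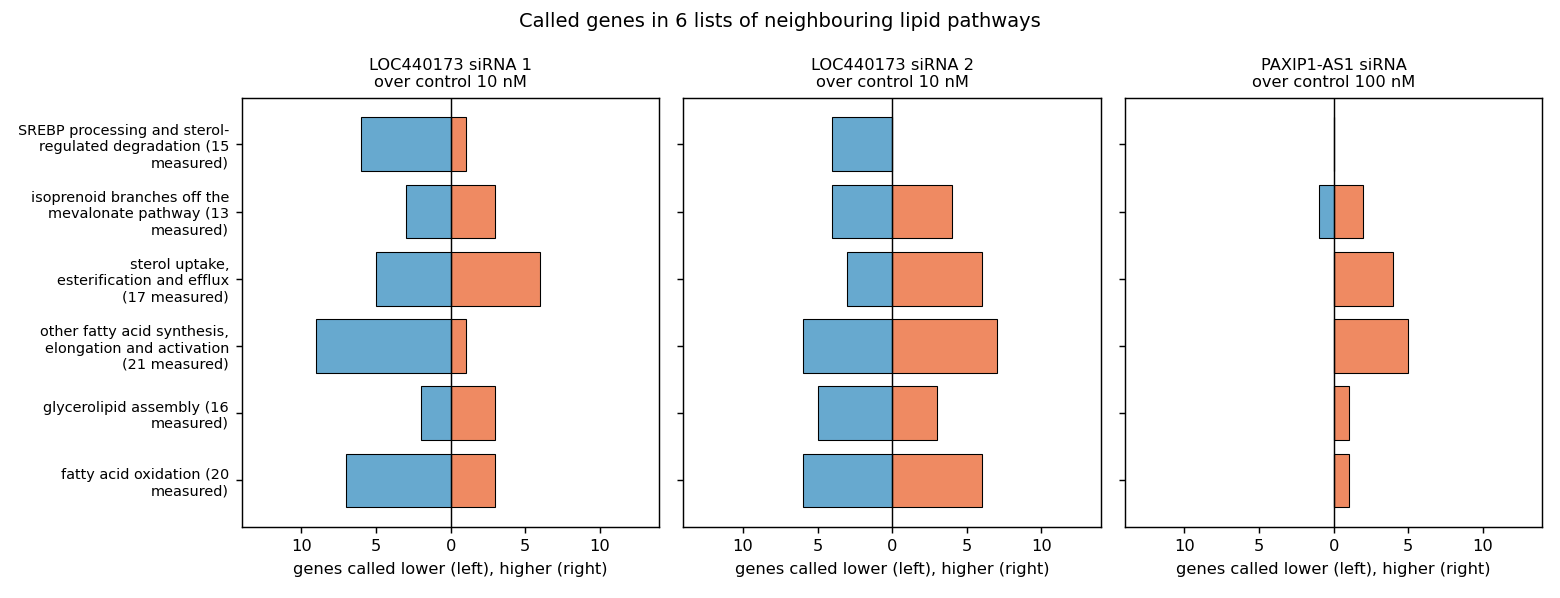
Number of genes called lower (bars to the left) and higher (bars to the right) in 6 lists of neighbouring lipid pathways, in each of 3 silencing contrasts. In the list of other fatty acid synthesis genes, 9 of 21 are called lower with siRNA 1, and 7 higher and 6 lower with siRNA 2.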

How the data were processed

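The values that the authors deposited were log2 expression levels of 32321 probe sets on each array. The tools listed in the submitters' processing notes are RMA, which corrects background, applies quantile normalization and summarises probes, and limma, with no role or version stated. For the array definition and genome build, nothing is given in the sources used here. Scanner intensities were not used here, so each probe set's height over background is unknown, and the number of arrays limits the precision. Groups came from the labels.

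In the platform annotation, 19158 probe sets had 1 symbol, 1388 had several and 11775 had no entry. The brightest probe set stood for each of 18404 genes. All 10 arrays entered a limma fit (version 3.58.1, R 4.3.3) with 5 group means and eBayes, with 5 residual and 2.87 prior degrees of freedom. The 6 contrasts were tested two-sided at an adjusted p of 0.05 (Benjamini-Hochberg, all genes). An exact permutation test of 2 arrays against 2 cannot go below p = 0.333. Errors of fold changes are SEs of this fit. The code was tested on simulated data.

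Every gene of the set is named. Values on every array go to up to 8 called genes each way per contrast, by size, and up to 3 called genes are taken per list. The members, lists and tests were chosen with earlier results of these data known. The alternatives were cyclic loess, the mean of all probe sets, dropping genes below the median level, fitting just the groups compared, an intensity trend with a robust prior, a replicate block, and each array left out.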

Additional observations from a re-analysis of the deposited data

Results flagged for a closer look

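For 8 genes the effect of the PAXIP1-AS1 siRNA, against its control at 100 nM, differed from the mean effect of the LOC440173 siRNAs, against their control at 10 nM, in limma's test of the difference itself. The difference, on the log2 scale, was 0.98 for FADS1, 0.77 for FADS2, 0.68 for SQLE and 0.53 for LSS, and these 4 calls were kept in every alternative. It was 0.42 for TM7SF2, 0.40 for ACSS2, 0.38 for EBP and 0.35 for ACLY, each of which lost its call without some single array. The adjusted p reached 0.142 for TM7SF2, 0.0563 for ACSS2, 0.092 for EBP and 0.0539 for ACLY. FADS1 gave 0.07 with the PAXIP1-AS1 siRNA, against -1.37 with LOC440173 siRNA 1 and -0.45 with siRNA 2. FADS2 gave 0.33, against -0.19 and -0.69 for the same groups, so the effects on FADS2, each against its own control, had opposite signs. The controls of FADS2 were themselves apart, at 9.64 for 100 nM and 9.81 for 10 nM, with 9.97 for the PAXIP1-AS1 siRNA. Target and dose differ together between these experiments and cannot be told apart.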

How the results depend on the processing

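Of the genes called in each contrast, 9 of 14 for siRNA 1, 10 of 18 for siRNA 2, 17 of 25 for siRNA 2 against siRNA 1, 1 of 2 for PAXIP1-AS1 and 4 of 8 for the difference between targets were called in every alternative, and 0 called values reversed. For siRNA 2 against the control, 10 genes were called when the fit held just the groups compared, where 2788 of all 18404 genes were called. For PAXIP1-AS1 it was 9 with genes below the median level left out, where 1879 of all 9202 genes were called. It was 7 with the intensity trend and robust prior, where 1784 of 18404 were called. It was 1 with just the groups compared, where 181 of 18404 were called. With 1 array left out, counts ran from 9 to 15 for siRNA 1, 16 to 18 for siRNA 2, 18 to 24 for the direct contrast, 1 to 4 for PAXIP1-AS1 and 5 to 9 for the difference between targets. The lowest count for the difference between targets came without either PAXIP1-AS1 array or replicate 1 of the control at 100 nM. The control doses had 0 called genes in every alternative. Some genes that were not called gained a call in at least 1 alternative. They were 4 genes for siRNA 1, 7 for siRNA 2, 3 for the direct contrast, 7 for PAXIP1-AS1 and 4 for the difference between targets. SQLE with siRNA 2 was called in 4 alternatives (lowest adjusted p = 0.00661), and FDPS with siRNA 1 reached 0.0155 with the intensity trend and robust prior. Cyclic loess moved the median of all genes by less than 0.1 in every contrast. Where a single array is left, it is assumed to vary like the other groups. The causes were not tested.

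Same-numbered arrays were not treated as pairs, since the labels tie them to no shared culture and there are only 2 numbers. The difference of replicate 1 and replicate 2 correlated across genes between groups with r from 0.07 to 0.53. With the replicate block, the PAXIP1-AS1 count was 4, where 1325 of all 18404 genes were called, and the other counts stayed within 1.5 times.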
